A study of Mus musculus with 15 samples.

Results

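Marrow stromal cells of TauT+/+ mice, the wild-type arm of a study on the taurine transporter TauT, were examined here as a baseline for this kind of culture. The libraries are those whose title names the wild type, 7 of the 15 RNA-sequencing libraries of the study, with 4 labelled male and 3 labelled female. The mice were of C57BL/6J background and 16 weeks old, carried both intact copies of Slc6a6 (the gene of TauT), and gave femur and tibia marrow that was grown on dishes coated with type I collagen. The medium was MEM α with 15% serum and no ascorbic acid, and oxygen was held at 2%. At confluence, stromal cells were enriched by magnetic depletion for CD45, Ter119 and CD31 or by flow sorting, and the sources used here do not say which was used for each library. The labels give neither the animal behind each library nor any pooling, so p-values and the spread between libraries measure these samples only and may hold technical as well as biological differences. No other treatment is named, and no comparison with the knockout libraries was made.

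Mesenchymal stromal cells (MSCs) of the marrow are the adherent, non-blood cells that lay down extracellular matrix and can give rise to bone, fat and cartilage cells. They also secrete CXCL12 and KITL, which hold blood stem cells in the marrow and keep them alive, and CSF1, on which macrophages depend. Marrow macrophages stick to plastic as well, so they are the blood cells that most often persist when marrow stroma is cultured.

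Values are in CPM, the deposited read counts per gene scaled to a common library size that edgeR's TMM method corrected for composition. A CPM is a level of 1 gene that can be set beside the same gene in another library. TPM is a level also divided by exon length, the union of all annotated exons, and serves for a rough comparison of different genes. An order of genes by CPM is an order by share of reads, in which long genes gain. Libraries are named by their label, female 1 to 3 and male 1 to 4. Total counts were 12761107 to 20429528 in the female-labelled and 69764291 to 96024405 in the male-labelled libraries, so depth and sex label cannot be told apart. A gene with 0 counts may still be present at up to 0.226 CPM in the shallowest library and 0.0324 CPM in the deepest, taking 3 counts as the limit that a count of 0 allows, for counting error only. Genes of the sex chromosomes contradicted the label of 2 libraries. Xist, the RNA that coats the silent X chromosome in females, was at 849.5 CPM in male 1 and 13.6 CPM in female 3. Ddx3y, a gene of the Y chromosome, was at 0.0147 CPM in male 1 and 79.5 CPM in female 3. In male 2, male 3 and male 4, Xist had 0.190 to 0.464 CPM and Ddx3y 94.1 to 162.6 CPM. Female 1 and female 2 had 773 and 696 CPM of Xist. Female 3 thus had Ddx3y near the level of male 2 to male 4 but more Xist than they had, and the cause was not tested.

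The 21 pairs of libraries differed widely in how alike they were. Over the 9523 genes with a mean of at least 10 CPM, the log2 ratio of CPM between female 1 and male 1 had a scaled median absolute deviation, called spread here, of 0.110, and 5 genes differed more than 2-fold. The next closest pair, female 2 and male 1, had a spread of 0.307 and 461 such genes, and the widest, male 2 and male 3, had 0.595 and 1784 such genes. Counting error alone would give 0.0586 for female 1 and male 1, which does not show whether they are separate samples. Female 1 had 773 CPM of Xist and 0 counts of Ddx3y, close to the values of male 1. They may be 1 sample, and each n of 7, each SD and each count of high or low libraries rests on counting them as 2. Summed into 1 sample, leaving 6, they gave a mean of 10335 ± 10247 CPM for Cxcl12 (12178 ± 10558 CPM with n = 7), and 84 of the 100 most variable genes were the same.

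**Figure D1:**
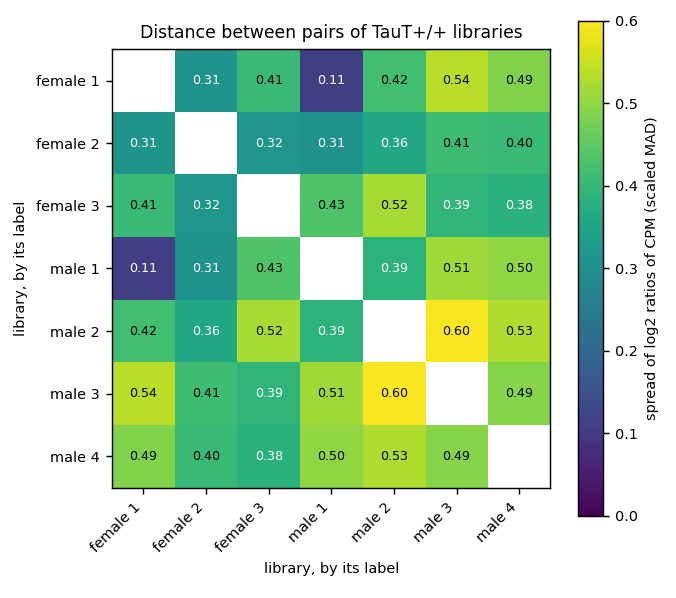
Spread of the log2 ratio of CPM (scaled median absolute deviation over genes with a mean of at least 10 CPM) for each pair of the 7 TauT+/+ libraries, which are named on both axes by their label. The cell of female 1 and male 1, at 0.11, stands apart from all others, which lie between 0.31 and 0.60.

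Genes that define marrow stroma were present in each of the 7 libraries, with little Lepr, and macrophage genes, described further on, were present beside them. Col1a1, a chain of type I collagen, ranged from 9601 CPM (female 2) over a median of 11314 to 16839.5 (male 3), and Pdgfrb, the platelet-derived growth factor receptor of mesenchymal cells, from 448 (female 3) over 575 to 908 (male 2). Itgb1 (CD29) had 1465 ± 428 CPM (SD, n = 7 libraries) and Cd44 183 ± 123 CPM (SD, n = 7). Lepr, the leptin receptor that marks most perivascular stroma in intact marrow, had at most 1.98 CPM (male 3) and a median of 1.13 CPM, and a single count in male 4. Eng, which encodes CD105, was between 157 and 472 CPM in 6 libraries and 10.8 CPM in male 2. Slc6a6 itself had 598 CPM (male 4) to 2639 CPM (male 2) with a median of 1711 CPM, so its transcript was present in every wild-type culture.

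The counts were spread over a broad transcriptome in which matrix genes and Cxcl12 took the largest single shares. At least 1 CPM was found in every library for 11831 genes and in at least 1 library for 14349 of the 56832 listed, and 26302 genes had no count. Protein-coding genes took 97.1% to 98.0% of counts, the 10 highest genes of a library 8.47% to 10.2%, and the 100 highest 24.6% to 27.5%. Genes of cytosolic ribosomal proteins took 1.68% to 3.03%.

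By mean CPM the 10 highest genes were Fn1, Col1a1, Cxcl12, Thbs1, Bgn, Col1a2, Col3a1, mt-Co1, Lox and Sparc. All but 2 of these encode secreted proteins of the matrix or its assembly, the others being the chemokine Cxcl12 and mt-Co1, a mitochondrially encoded subunit of cytochrome c oxidase. Fn1 (fibronectin, chromosome 1 of GRCm39, 71624673 to 71692419) had 13743 ± 4315 CPM (SD, n = 7), from 7634 in female 3 over a median of 13387 to 21330.0 in male 3. Col1a1 (chromosome 11, 94827050 to 94843868) had 12898 ± 3109 CPM (SD, n = 7), and its highest library exceeded its lowest by 1.75-fold. Thbs1, a matricellular glycoprotein that activates TGF-β, ranged from 5823 (female 1) over 9709 to 13214 CPM (male 3). Lox, which crosslinks collagen and elastin, was the steadiest of the 10, from 4790.4 (female 1) over 6326 to 7435 CPM (male 4). Col1a2, the partner chain of Col1a1 in type I collagen, was less even than Col1a1, at 2673 CPM in male 2 against 5215 to 10269 CPM in the other 6 libraries. The same 10 genes led whichever library was left out and when female 1 and male 1 were summed.

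Per exon length the order was different, and 3 genes were among the 10 highest on both scales (Col1a1, Thbs1 and mt-Co1). Mean TPM was highest for mt-Co1 (21273 ± 10339, SD, n = 7) and mt-Cytb (13366 ± 6009.8), followed by the ribosomal RNA gene Rn18s-rs5 (11789 ± 10084), Hp, mt-Nd1, Col1a1, Actb, mt-Nd2, Thbs1 and Ftl1. Hp encodes haptoglobin, which binds free haemoglobin, and had 11491 ± 7739 TPM. In CPM it ranged from 512 (male 3) over 3721 (female 2) to 6858 (male 1). Col1a1 had 9885 ± 2336 TPM and its partner Col1a2 2861 ± 1107 TPM, while the longer Fn1 had 4349.8 ± 1306 TPM. The lengths used, which join all annotated exons of a gene, were 6567 bases for Col1a1, 12650 for Col1a2 and 15831 for Fn1. Such a length can exceed that of the transcripts present, so TPM may understate a gene and these differences depend on it. Rn18s-rs5 was read from libraries primed at poly(A) tails, and it ranged from 906 CPM (female 3) over 4549 (male 4) to 12072 CPM (male 2). The values of mitochondrial and ribosomal RNA genes are uncertain, since near-identical copies of both lie elsewhere in the genome and the treatment of reads with several matches is not given in the sources used here.

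**Figure D2:**
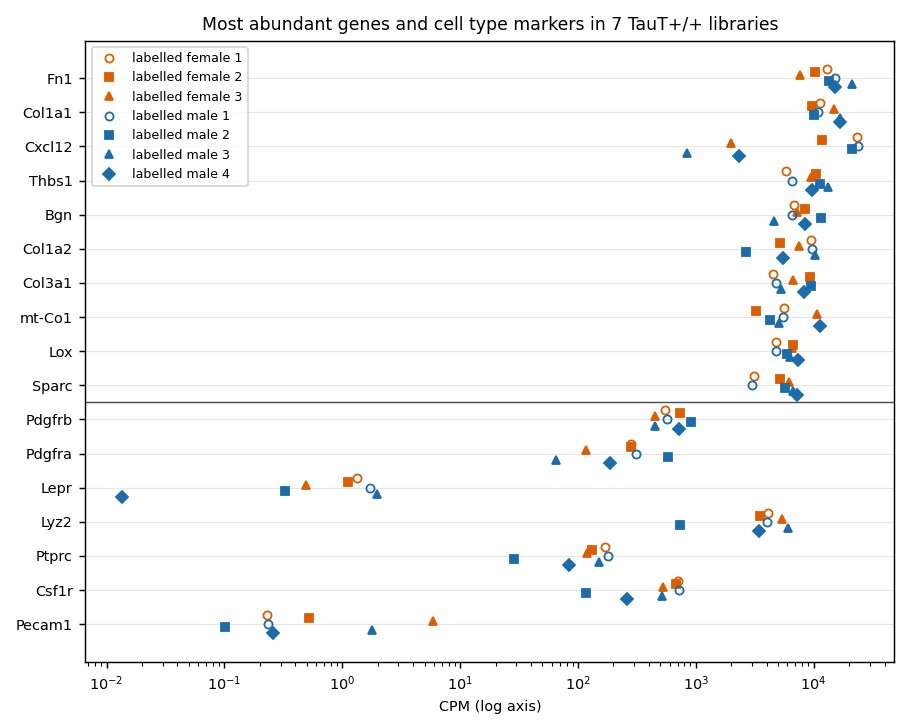
CPM on a log axis in each of the 7 TauT+/+ libraries for the 10 genes with the highest mean CPM (above the line) and 7 cell type markers (below it), with colour for the sex label and open circles for female 1 and male 1. Cxcl12 spans 847 to 23619 CPM while the other 9 abundant genes stay within 3.84-fold, and male 2 is lowest for Lyz2, Ptprc and Csf1r.

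Collagen genes were even in sum and uneven one by one. All 20 listed collagens had a mean of at least 10 CPM and 16 of at least 100 CPM, and their summed level was 45935.9 ± 5673 CPM (SD, n = 7), from 39173 in female 1 to 54063 in male 4, while the median SD of log2 CPM over the genes was 0.67. The members had their maxima in different libraries, 8 of the 20 in male 3 and 5 each in male 2 and male 4, which were highest for 25.2%, 24.9% and 20.498% of all 9523 genes. Col1a1, Col5a1 and Col5a2, chains of the fibril-forming types I and V, were highest in male 3. Col6a1, of the beaded filaments of type VI, was by contrast lowest in male 3 at 1062 CPM and highest in male 2 at 3507 CPM, with a median of 2709.5 CPM. Col14a1, which decorates collagen fibrils, had 1500.3 CPM in male 2 and 17.5 to 258 CPM in the other 6. Col11a1, a fibril collagen best known from cartilage, had 216 CPM in male 3 and 6.61 to 76.5 CPM elsewhere.

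Non-collagenous matrix ranged from very abundant to nearly absent members. Of the 29 listed glycoproteins and proteoglycans, 27 had a mean of at least 10 CPM, and their sum was 55946 ± 7908 CPM (SD, n = 7). Bgn (biglycan) had 7655 ± 2116 CPM. Dcn (decorin), like it a small proteoglycan that binds collagen fibrils, had 1.62 CPM in male 3 and 112 CPM in female 2 with a median of 48.2 CPM. On the TPM scale the means were 5705 ± 1518 for Bgn, 19.7 ± 18.7 for Dcn and 0.401 ± 0.316 for the related Lum. Tnc, a tenascin of healing and growing tissue, ranged from 72.9 (female 1) over 329.8 to 1563 CPM (male 3), and Igfbp4, which binds insulin-like growth factors, from 775 (male 4) over 3288 to 7772 CPM (male 2). Ccn2, a TGF-β target, had 1030.0 CPM (male 1) over 3113 to 3737 CPM (male 4), and Postn, or periostin, 625 (female 1) over 999 to 1924 CPM (male 4). Eln (elastin) had a mean of 2.36 ± 3.72 CPM with 10.4 CPM in female 3, and was at or below 3.31 CPM in the other 6.

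Genes that process the matrix included both steady and uneven members. Of 28, 27 had a mean of at least 10 CPM. The collagen chaperone Serpinh1 had 1531 ± 435 CPM (SD, n = 7), and the prolyl hydroxylase gene P4ha3 had 116 ± 14.1 CPM with a 1.44-fold range. Mmp19, a metalloproteinase, stayed between 60.9 CPM (female 2) and 78.6 CPM (male 2), whereas Mmp3 (stromelysin) had 24.1, 27.7 and 32.7 CPM in female 3, male 3 and male 4 and 0.317 to 2.93 CPM in the other 4. The inhibitors differed in the same way. Timp2 had a 1.88-fold range, while Timp3 went from 238 CPM (female 1) over 1069.6 to 5003 CPM (male 3). Male 3 was the highest library for 11 of the 27 genes, against 25.2% of all 9523 genes at this level.

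Among the 25 listed genes of stromal identity, 21 had a mean of at least 10 CPM. Transcription factors of the limb mesenchyme and of marrow stroma were present throughout, with Prrx1 at 423 ± 107 CPM (SD, n = 7), Ebf1 at 162 CPM and Foxc1 at 127 CPM on average. Ly6a, which encodes SCA1, ranged from 164 (female 1) over 205 to 527 CPM (male 2). Thy1 (CD90) was among the least even surface genes, with 424 CPM in male 4 and 11.7 CPM in female 1 around a median of 65.5 CPM. Pdgfra varied more than Pdgfrb, from 65.4 CPM (male 3) over 282 to 576 CPM (male 2), an SD of 1.03 against 0.38 on the log2 scale. Gli1, which marks a stem-like stromal subset in bone, had 1.97 CPM at most.

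Cxcl12 had the largest SD of log2 CPM among the 10 genes with the highest mean CPM. It lies on chromosome 6 of GRCm39 from 117144945 to 117158328 on the forward strand and had 12178 ± 10558 CPM (SD, n = 7). Its level was 23619 in male 1, 23379 in female 1, 21313 in male 2 and 11755 in female 2, but 2343 in male 4, 1989 in female 3 and 847 in male 3. Hence 4 libraries, 2 of them the near-identical female 1 and male 1, were at or above 11755 CPM and 3 at or below 2343 CPM, with none between, and the highest exceeded the lowest by 27.9-fold. The low libraries carry both sex labels and both depths, but sex-linked genes contradict the label of female 3. Ddx3y was at 79.5 to 162.6 CPM in the 3 low libraries and at 110.9 CPM in male 2. It had at most 0.0147 CPM in female 1, female 2 and male 1. Whether sex has a part in the level of Cxcl12 was not tested. The summed level of the macrophage list, a list of 25 genes, was 5898, 10252 and 10413 CPM in male 4, male 3 and female 3 and 1605 to 9328 CPM in the other 4, so it overlapped between the libraries low and high for Cxcl12.

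Other niche factors followed the order of Cxcl12 in part. Of 22 listed, 12 had a mean of at least 10 CPM, and 5 of these 12 (Kitl, Angpt1, Vcam1, Hgf and Tnfsf11) had female 3, male 3 and male 4 as their 3 lowest libraries. The same was true of 1023 of all 9523 genes (10.7%), and a further 851 (8.94%) had these as their 3 highest. Kitl, the stem cell factor, had 567.7 CPM in male 2, 468 in male 1 and 431 in female 1, 206 in female 2, and 105.5, 45.4 and 24.0 CPM in male 4, female 3 and male 3. Vcam1, the adhesion receptor by which blood progenitors hold on to stroma, ranged from 78.1 (male 3) over 303 to 944 CPM (male 2). Tnfsf11, which encodes the osteoclast factor RANKL, was at 6.004 to 7.55 CPM in the 3 libraries and 38.3 to 67.7 CPM in the other 4. Its decoy receptor Tnfrsf11b was not ordered in this way, with 409.7 CPM in male 2, 146 in male 3 and 49.0 in female 3.

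The remaining niche factors were steadier or scarcer. Csf1, the growth factor of macrophages, had 1347 ± 195 CPM (SD, n = 7), within a 1.56-fold range from male 2 to male 3. Igf1, a growth factor, had 172 ± 49.7 CPM and Jag1, a Notch ligand, 93.8 ± 37.3 CPM. Il7, needed by developing lymphocytes, had 2.64 CPM (female 1) over 3.08 to 11.8 CPM (male 3), and Thpo, the thrombopoietin gene, a median of 1.03 CPM. Spp1 (osteopontin), which is made by stroma and by macrophages, ranged from 1238 (female 3) over 4202 to 7317 CPM (male 1).

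Because Cxcl12 and Kitl were low in the same libraries, the 120 bases before each start site are shown, from the RefSeq promoters of build GRCm38.p6, on the forward strand. Both strands were searched for TATAAA and CCAAT, 2 common promoter motifs whose matches may share a base, and capitals mark a match. Kitl has a TATAAA that begins at position -25 from its start site, and the Cxcl12 window holds neither motif.
Cxcl12, chr6:117168415-117168534: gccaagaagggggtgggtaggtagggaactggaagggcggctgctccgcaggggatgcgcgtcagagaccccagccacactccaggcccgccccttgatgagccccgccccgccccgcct
Kitl, chr10:100015701-100015820: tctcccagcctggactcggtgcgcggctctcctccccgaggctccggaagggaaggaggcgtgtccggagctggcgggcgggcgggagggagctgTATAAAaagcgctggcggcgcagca
Of 32851 promoters in that table, 6.34% hold TATAAA and 21.3% hold CCAAT in the same window on either strand. The match is a description of the letters and no test of what binds there.

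Early genes of the bone lineage were present, while several late ones were low or had 0 counts. Spp1 (osteopontin), which macrophages also make and which is given above, was abundant in every library. Runx2, the transcription factor that commits cells to bone, was among the steady genes, with 47.1 CPM (female 2) over 50.6 to 73.8 CPM (male 2). Its downstream factor Sp7 had 6.93 CPM in male 4 and 20.2 to 43.5 CPM in the other 6. Alpl, the alkaline phosphatase gene that is used as an early bone marker, had 4.17 CPM in male 4 against 105 to 320.3 CPM elsewhere. Bglap (osteocalcin) did not pass 0.536 CPM in any library, Ibsp not 2.19 CPM, and the osteocyte genes Sost and Mepe had 0 counts. Of 20 listed genes, 7 had a mean of at least 10 CPM and 8 stayed under 1 CPM in every library.

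Of 20 listed genes of the fat lineage, 14 had a mean of at least 10 CPM, while some products of mature fat cells were low. Cebpa, a regulator of fat cell formation, ranged from 89.5 (male 3) over 384 to 766 CPM (male 2), and Pparg, the other main regulator, from 29.0 (male 3) over 78.0 to 127 CPM (male 2). Lpl, a lipase that marrow stroma shares with fat cells, had 2623 CPM in male 2 and 72.3 CPM in male 3. Adipoq (adiponectin) had 111 CPM in male 2 and at most 13.6 CPM in the other 6, and Plin1, which coats fat droplets, 47.9 CPM in male 2 and at most 7.97 CPM. Fabp4, a fatty acid carrier, had 58.6 (male 4) over 142 to 204 CPM (female 1), and Plin2, of fat droplets in many cell types, 116 (male 2) over 203 to 337 CPM (male 3). Pck1 had 0 counts. Of the 14 genes, 6 had female 3, male 3 and male 4 as their 3 lowest libraries, against 10.7% of all genes, and none had them as the highest. These are descriptions of rank. Male 2 was highest for 4 of the 14, near its share of 24.9% of all genes.

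Of 15 listed cartilage genes, 6 had a mean of at least 10 CPM and 7 stayed under 1 CPM in every library. Col2a1 made up most of the mean of the list, 698 of 803 CPM. Without male 3 the mean of the list was 384 CPM. Col2a1, the main collagen of cartilage, had 3198 CPM in male 3, 981 in female 3 and 96.1 to 248 CPM in the other 5. Sox9, the regulator of cartilage formation, did not share this order, with 54.1 CPM in male 2, 11.96 in male 3 and 6.93 in female 3. Acan (aggrecan), a defining product of chondrocytes, stayed at or below 0.875 CPM, Col9a1 and Cnmd had 0 counts, and Hapln1 had at most 0.0216 CPM. Prg4, a lubricant of joint surfaces, had 39.7 CPM in male 3 and 28.6 in female 3, and 2.99 to 10.3 CPM elsewhere.

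Contractile genes were high in each culture. Their sum over 14 genes was 12474 ± 1899.8 CPM (SD, n = 7), within a 1.41-fold range. Acta2 (smooth muscle actin) had 2889 CPM (female 1) over 3465 to 4663 CPM (male 3), and Tagln 1598 ± 414 CPM. Genes of more mature smooth muscle were less even, with Myh11 from 37.6 (female 1) over 266 to 371 CPM (male 4) and Des from 8.99 (male 1) over 62.7 to 182 CPM (male 4). Myocd, the master regulator of smooth muscle, had at most 2.99 CPM. The 24 genes of the cytoskeleton summed to 23229.6 to 26143 CPM in 6 libraries and to 32054 CPM in male 3, which was highest for 15 of the 24, against 25.2% of all genes.

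Macrophage genes were present in the enriched cultures. Lyz2 (lysozyme, chromosome 10, 117111557 to 117118346) had 3894 ± 1707 CPM (SD, n = 7), from 737 in male 2 over 3992 to 6091 CPM in male 3, and Ptprc, which encodes CD45, a target of the enrichment, 28.5 CPM in male 2 over 131 to 181 CPM in male 1. Per length these were 5942 ± 2636 and 33.3 ± 14.2 TPM. The complement gene C1qa had 1095 ± 477 TPM and the adaptor Tyrobp 1098 ± 473 TPM. Of the 25 listed macrophage and monocyte genes, 22 had a mean of at least 10 CPM, and male 2 was the lowest library for all 22, against 18.3% of all genes. The summed level was 1605 CPM in male 2 and 5898 to 10413 CPM in the other 6. In such bulk samples, fewer macrophages and less RNA per macrophage cannot be told apart.

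Within the macrophage list the libraries were not alike in kind. Adgre1 (F4/80) had 1068 CPM in female 3 and 35.0 to 370.3 CPM in the other 6, and Mrc1, a mannose receptor, had its second lowest level in female 3, at 149 CPM, with 526 CPM in male 1. Marco, a scavenger receptor of macrophages outside this list, had 1071 CPM in female 3, 236 CPM in male 3 and 2.33 to 29.7 CPM elsewhere. Cd163 stayed at or below 2.68 CPM and Ccr2, a receptor of newly arrived monocytes, at or below 0.536 CPM. Marco is 1 of the 40 most variable genes and was chosen after its values were seen. Acp5, the osteoclast acid phosphatase, had 55.6 CPM in male 3 and 37.6 CPM in female 3 and at most 5.26 CPM elsewhere, and Mmp9, which osteoclasts and macrophages secrete, 345 and 246 CPM there against 3.66 to 128 CPM. Calcr, a late osteoclast marker, did not pass 0.130 CPM.

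Other blood lineages left lower levels, several at 0 counts. The 13 neutrophil genes summed to 11.6 to 26.1 CPM in 6 libraries and 54.8 CPM in female 3, where Csf3r (21.2 CPM), Mmp8 (16.8 CPM) and S100a8 (6.88 CPM) were highest. Camp had 3.87 to 21.0 CPM, highest in male 2, and S100a9, Ngp and Retnlg had 0 counts. The 10 B cell genes summed to at most 4.78 CPM (female 3), where Ighm gave 3.44 CPM, and Ms4a1 and Pax5 had at most 2 counts in any library. The 11 T and NK cell genes summed to at most 0.951 CPM, with Cd3e, Cd3d, Cd3g and Cd8a at 0 counts. Erythroid genes summed to at most 4.63 CPM, of which Epor gave 4.28 CPM in male 2. The globin genes Hba-a2, Hbb-bs and Hbb-bt had 0 counts and Hba-a1 3 counts over all libraries, but these genes have near-identical copies and their values are uncertain. Of blood progenitor genes, Gata2, which stroma also expresses, reached 12.1 CPM in male 2, and Flt3, Myb and Gata1 stayed at or under 0.134 CPM. Pf4, known from platelets and also from marrow macrophages, ranged from 14.0 (male 2) over 66.2 to 87.7 CPM (female 3), while the platelet genes Gp9 and Gp6 had at most 0.0432 CPM.

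**Figure D3:**
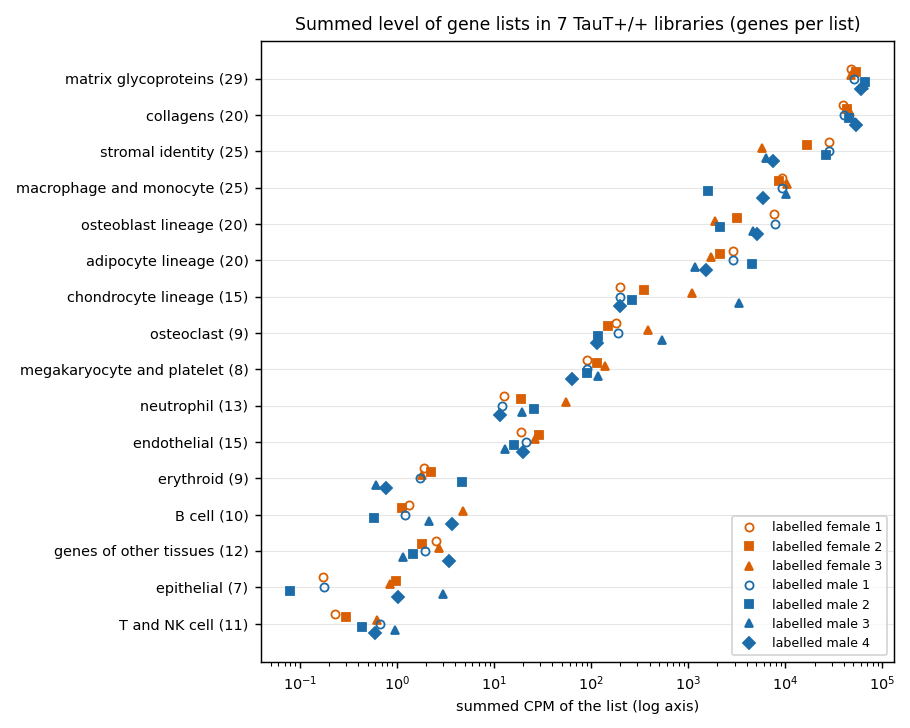
Summed CPM (log axis) of 16 gene lists in each of the 7 TauT+/+ libraries, with the number of listed genes in the table in brackets, colour for the sex label and open circles for female 1 and male 1. Lists hold different numbers of genes and are read across libraries only. Male 2 is lowest for macrophage and monocyte genes at 1605 CPM, and male 3 highest for chondrocyte genes at 3318 CPM.

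Endothelium and unrelated tissues left little trace. The 15 endothelial genes summed to 13.0 to 28.8 CPM. Vwf, found in vessel walls and megakaryocytes, had 7.93 ± 3.92 CPM (SD, n = 7). Pecam1, which encodes CD31, another target of the enrichment, was at 5.86 CPM in female 3, 1.79 in male 3 and at most 0.526 CPM elsewhere, and the vessel genes Cdh5, Tie1, Robo4 and Cldn5 were at or under 0.706 CPM. The 7 epithelial genes summed to at most 2.96 CPM and the 12 genes of liver, pancreas, heart, kidney, lung, eye, testis and brain to 1.15 to 3.48 CPM, with 6 of the 12 at 0 counts. Of the muscle list, Acta1, a skeletal actin that fibroblasts can express, had 143 CPM in male 3 and 0.677 to 48.8 CPM elsewhere, and Myod1, Myog, Myf5 and Pax7 had at most 1 count in any library. The glial regulator Sox10 had 11.1 CPM in female 2 and 9.37 CPM in male 3, and at most 1.20 CPM in the other 5. Its partners Foxd3 and Cdh19 had 6.09 and 5.19 CPM in female 2 and 2.73 and 1.90 CPM in male 3, which were their highest levels too.

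**Figure D4:**
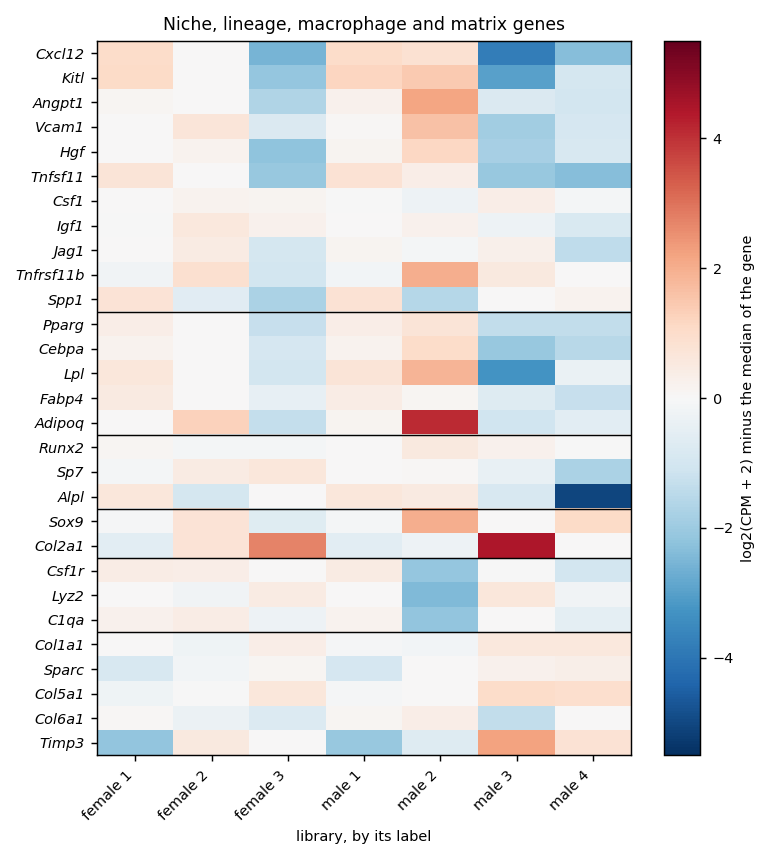
Level of 29 niche, fat, bone, cartilage, macrophage and matrix genes (blocks from top to bottom, with niche genes first) in the 7 TauT+/+ libraries, as log2(CPM + 2) minus the median of the gene. The cells of Cxcl12, Kitl and Pparg below the median fall in female 3, male 3 and male 4. The lowest cell of Csf1r, Lyz2 and C1qa falls in male 2. Centring on the median leaves as many libraries below it as above it for a gene, so the number of blue cells in a row is no result.

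Cell state genes also differed by library. The 20 genes of dividing cells were all at or above 1 CPM in every library and summed to 278 CPM (male 4) over 450.1 to 876 CPM (male 3), and male 3 was highest for 10 of the 13 with a mean of at least 10 CPM, against 25.2% of all genes. Mki67, present in cycling cells, had 114 CPM in male 3 and 20.52 to 60.8 CPM elsewhere. Cell cycle inhibitors were also highest in male 3, for 6 of 10 genes, among them Cdkn1a at 489.6 CPM (median 279.7) and Cdkn2a at 173 CPM (median 128). Interferon-induced genes ran from male 3, lowest for 7 of the 8 genes with a mean of at least 10 CPM, to male 4, highest for 7 of the 8, where male 3 was lowest for 17.1% and male 4 highest for 20.498% of all genes. Ifit1 had 1.72 CPM in male 3, 43.6 CPM in male 4 and 4.69 to 18.1 CPM in the others.

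Genes known to answer low oxygen were highest in male 4, and all cultures were kept at 2% oxygen. Their sum over 20 genes was 6117 to 6942 CPM in 6 libraries and 9653 CPM in male 4, which was highest for 15 of 18 genes, against 20.498% of all genes. Egln1, an oxygen sensor, had 306 CPM in male 4 and 137 to 162 CPM elsewhere, and Higd1a, a mitochondrial protein of the low oxygen response, 144 CPM against 32.6 to 63.0 CPM. Car9, a strongly oxygen-dependent carbonic anhydrase, reached 7.90 CPM in male 3 and had a median of 1.88 CPM. Mitochondrially encoded genes were high in female 3 and male 4, at 28355 and 26841 CPM in sum, and at 8949 to 14356 CPM in the other 5. Of the 13 protein genes, mt-Co2, mt-Co3, mt-Atp8 and mt-Nd4l had 0 counts in all 7 libraries although mt-Co1 led the TPM order, so a 0 in this table is not by itself a measure of absent RNA.

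Secreted inflammatory genes were uneven, with a median SD of 1.03 on the log2 scale over 15 genes against 0.27 over all 9523. Il1rn, the interleukin-1 receptor antagonist, had 1320 CPM in female 1, 1328 in male 1, 838 in male 2 and 337 in female 2, and 63.6, 55.3 and 38.3 CPM in male 3, female 3 and male 4. Ptgs2, the inducible prostaglandin synthase, was highest where Il1rn was lowest, with 585 CPM in male 3, 173 in female 3 and 89.4 in male 4. Ptgs2 had 12.3 to 25.6 CPM in the other 4. Of the 15 genes, 1 (6.67%) had female 3, male 3 and male 4 as its 3 lowest libraries, against 10.7% of all genes. They were the 3 highest for 2 of the 15 (13.3%), against 8.94% of all genes. The list as a whole thus did not share this order. Il6 had at most 16.6 CPM (female 3), and Tnf 14.8 (male 2) over 49.8 to 87.9 CPM (male 1).

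Genes of limb position marked all 7 cultures. Hoxa9, Hoxa10 and Hoxc10, which pattern the limb along its length, were steady at 23.1 ± 2.83, 44.7 ± 8.98 and 41.3 ± 11.5 CPM (SD, n = 7), and Tbx15 and Shox2 had 82.8 ± 33.7 and 59.0 ± 33.2 CPM. Hoxa11, which belongs to the forearm and shank, was not steady. It had 34.9 CPM in male 3 and 29.3 CPM in male 4, 4.51 in female 3, 1.58 in female 2, and 0.0736 to 0.172 CPM in male 1, male 2 and female 1. Hoxa13, of the hand and foot, was highest in male 3 as well, at 5.53 CPM. Pitx1, which belongs to the hind limb, ranged from 0.780 (male 1) over 5.65 to 43.6 CPM (male 2), and the forelimb gene Tbx5 had at most 0.671 CPM. The 8 genes of cranial position summed to 1.72 to 12.9 CPM.

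Most genes varied little between the wild-type cultures, and a small group varied greatly. Over the 9523 genes with a mean of at least 10 CPM, the median SD of log2 CPM was 0.27 (n = 7 libraries), 4136 genes (43.4%) had an SD under 0.25, and 574 (6.03%) had an SD over 1. The highest library exceeded the lowest more than 10-fold for 387 genes (4.06%). The common biological coefficient of variation, which leaves out counting error, was 0.346, and 0.354 with female 1 and male 1 summed. The 10 genes with the largest SD were Ddx3y, Eif2s3y, Xist, Uty, Kdm5d, Nkx2-3, Slc13a3, Adamts15, Hoxa11 and Tnn. The first 5 are sex-linked, with SDs of 5.04 to 6.07, and the cultures are of both sexes.

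The other 5 had patterns of their own. Nkx2-3, a homeobox gene known from spleen and gut mesenchyme, had 122 CPM in male 2 and at most 0.172 CPM in any other library. Slc13a3, a dicarboxylate transporter, had 767 CPM in female 3, 13.5 CPM in male 3 and at most 2.71 CPM elsewhere. Adamts15, a protease of hyalectans such as versican, shared its 3 lowest libraries with Cxcl12, with 277 and 261 CPM in male 1 and female 1, 100.1 in female 2, 35.8 in male 2, and 10.7, 1.34 and 0.292 CPM in female 3, male 4 and male 3. Tnn, a tenascin of bone-forming sites, had 112 CPM in male 3, 62.0 in female 3 and 20.3 in female 2, and at most 2.13 CPM in the other 4.

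Few genes stood far above all other cultures in a single one. With female 1 and male 1 summed, 19 of the 9523 genes (0.1995%) had a highest sample at least 5-fold above the next, 6 of them in male 2, 4 in male 4 and 3 each in female 3, male 3 and the summed pair, with none in female 2. These were listed after their values had been seen. In male 2 they were Nkx2-3, Adipoq, Rbp4, Fbln7, Sfrp4 and Col14a1, and Rbp4, the retinol carrier, had 240.7 CPM there against 31.4 CPM in the next sample. Those of female 3 were Fgl2, Slc13a3 and Gpnmb, and Gpnmb, a lysosomal glycoprotein of macrophages, had 1204 CPM against 176 CPM. Male 4 had Vwa1, Tnfrsf9, Aldh1l2 and Fez1, male 3 had Flrt2 and Coch among others, and the pair had Pdzrn4, Abcc9 and Adcy1.

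**Figure D5:**
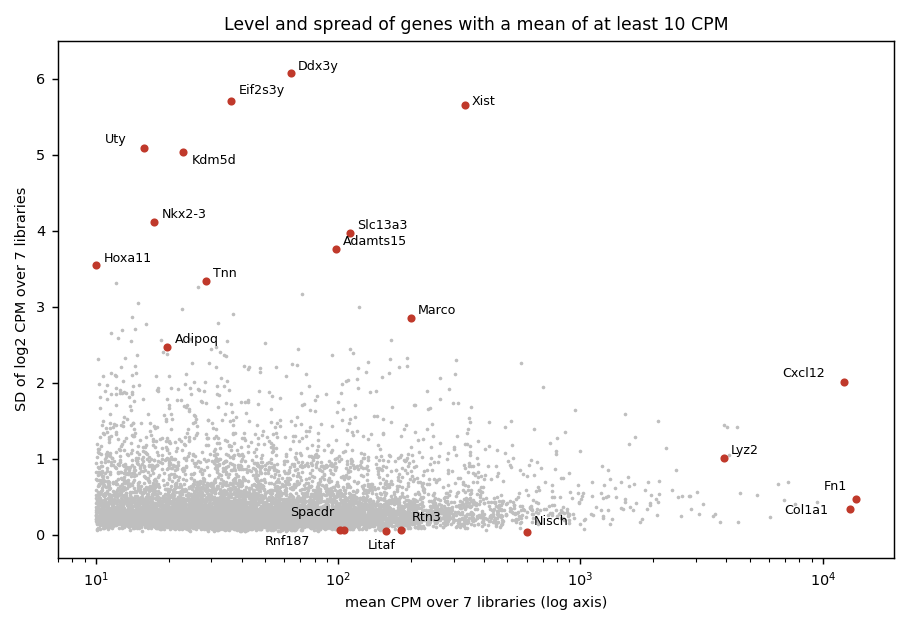
Mean CPM (log axis) and SD of log2 CPM over the 7 TauT+/+ libraries for each gene with a mean of at least 10 CPM, with named genes in red. Cxcl12, with an SD of 2.01, lies far above Fn1 (0.47) and Col1a1 (0.34), which have a similar mean CPM.

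At the steady end, among 2043 genes with a mean of at least 100 CPM, the smallest SDs were those of Nisch, Litaf, Spacdr, Rnf187 and Rtn3. Nisch, which encodes an imidazoline and integrin binding protein, had 585 CPM (female 3) over 602 to 632 CPM (female 1), an SD of 0.04 on the log2 scale. Litaf, a lysosomal membrane protein, had 149 to 168 CPM, and Rtn3, which shapes the endoplasmic reticulum, 172 to 194 CPM. Actb, often used as a reference, had an SD of 0.17 and a 1.43-fold range.

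The sex label was the single labelled difference among these libraries, and it was tested over all genes. With edgeR's quasi-likelihood test and Benjamini-Hochberg adjustment, 0 of 17116 genes (0%) differed between the 3 female-labelled and 4 male-labelled libraries at an adjusted p under 0.05, and 360 had an unadjusted p under 0.05. Cxcl12 had a log2 fold change, female minus male, of 0.04 and an adjusted p of 1.00. Xist, with a log2 fold change of 1.23, was not called either. Sex-linked genes contradicted the label of male 1 and female 3, and the near-identical female 1 and male 1 carry opposite labels. The test of the label is therefore no test of sex, and 0 calls do not show that the sexes are alike. DESeq2 called 4 genes, all higher in male-labelled libraries. They were Rn7sk, the ribosomal RNA genes Gm54867 and Rn18s-rs5 and the miRNA gene Gm55094, as the annotation classes them, named here after their values had been seen. Rn7sk, the RNA that holds the elongation factor P-TEFb inactive, had 0.172 to 0.313 CPM in female-labelled and 2.56 to 7.09 CPM in male-labelled libraries. DESeq2's adjusted p was 6.89e-08 for Rn7sk and edgeR's was 0.662. Depth differs between the labels without overlap, and its part in these differences was not tested. Without male 1 and female 3, edgeR called 1 gene, Xist (log2 fold change 11.29, adjusted p = 0.0327), and DESeq2 called 59 genes higher in female-labelled and 23 higher in male-labelled libraries. These libraries were left out for their values of Xist and Y-linked genes, so a difference in those genes among the rest was set by that choice and is no finding.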

How the data were processed

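Messenger RNA of cultured marrow stromal cells was measured in 15 libraries, of which the 7 labelled TauT+/+ are used. The authors primed full-length cDNA at poly(A) tails, amplified it without molecular identifiers, trimmed reads with fastp 0.23.1, mapped them with STAR 2.7.9a to GRCm39 with GENCODE M31 (the study's text calls it the human genome) and counted them by strand with featureCounts of Subread 2.0.1. Age is from a figure legend of the study, and oxygen is from its methods. The deposited values are raw read counts for 56832 genes.

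Counts were scaled by TMM in edgeR 4.0.16 (R 4.3.3) and given as CPM. Logarithms used a prior count of 2. TPM used the joined length of all exons of a gene in GENCODE M39, for 52379 genes with a unique symbol match, 98.9% of counts. Variation was measured over genes with a mean of at least 10 CPM, steadiness over those with at least 100. The sex labels were compared by edgeR's quasi-likelihood test on genes that pass filterByExpr, with p adjusted after Benjamini and Hochberg and a threshold of 0.05, and by DESeq2 1.42.0. The tests were tried on simulated counts with 200 changed genes, with independent libraries and no contradicted label. That trial does not show what the tests can find in the real libraries. Figures and descriptions were made in Python 3.11.15. Promoter sequences are RefSeq's on GRCm38.p6. Its table held no entry for Col1a1, Fn1, Thbs1, Actb and Hp, and Ahsp was not analysed here.

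Female-labelled and male-labelled libraries share the numbers 1 to 3. Their deviations from the group means correlated at 0.78, 0.31 and 0.59, the first being that of the near-identical female 1 and male 1. Libraries of unlike number were not correlated, so whether the numbers pair the samples was not tested, and the labels do not say. By spread, female 1 was closest to male 1 (0.110). Female 2 was closer to male 1 (0.307) than to male 2 (0.359), and female 3 closer to male 4 (0.384) than to male 3 (0.393). With the replicate number as a block, 0 genes were called.

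Genes named are the 10 highest by mean CPM and by mean TPM, the 10 most and 5 least variable, examples from 33 lists and any calls of the sex-label test, up to 5 each way whose groups do not overlap and whose mean reaches 1 CPM. The members and lists were chosen with earlier results of these data known. Alternatives were other normalizations, filters and prior counts, counts thinned to equal depth, TPM, the block and leaving out each library. Summing female 1 with male 1, and leaving out the 2 libraries whose sex-linked genes contradict the label, were added after the data were seen. Errors are SDs between libraries, and depth was 12761107 to 96024405 counts. Some genes are not reported here.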

Additional observations from a re-analysis of the deposited data

Results flagged for a closer look

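In 22 of 110 groups, 1 library stood apart from the rest of its group by Dixon's criterion, the distance from the outermost to the next library as a share of the range of the group. For values of a normal distribution, chance flags about 1 group in 20, or 5.5 of 110. The criterion was applied to CPM without logarithm, whose distribution was not tested, and every flagged library was high. That rate may therefore not hold here. It does not apply to 8 of the 22, which are of genes taken for their large spread. The groups were the 7 TauT+/+ libraries and the 4 male-labelled ones, over 55 results, and they share libraries and genes. Male 3 was the library apart in 10 groups, male 2 in 5, male 4 in 3, female 3 and male 1 in 2 each.

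Male 3 was high for chondrocyte genes (3318 CPM in sum, 0.713 among 7 libraries and 0.978 among 4), skeletal muscle genes (145 CPM, 0.667), epithelial genes (2.96 CPM, 0.669), genes of the cytoskeleton (32054 CPM, 0.670) and genes of dividing cells (876 CPM, 0.577). Most of the chondrocyte sum was Col2a1 and most of the skeletal muscle sum was Acta1, as given above. Among the 7 libraries, male 3 was thus set apart in these lists mainly by single genes. Among the male-labelled libraries it was also high for cell cycle inhibitors (1308 CPM, 0.915), Tnn (112 CPM, 0.985), the neurotrophin receptor gene Ngfr (50.6 CPM, 0.846) and Slc13a3 (13.5 CPM, 0.915).

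Male 2 was high for genes of limb position (649.7 CPM, 0.727 among 7 and 0.950 among 4), erythroid genes (4.63 CPM, 0.592) and Nkx2-3 (122 CPM, 0.999 among 7 and 1.000 among 4). Most of that erythroid sum was Epor. Male 4 was high for genes of the low oxygen response (9653 CPM, 0.767 among 7 and 0.832 among 4) and, among the male-labelled libraries, for mitochondrially encoded genes (26841 CPM, 0.831). Female 3 was high for neutrophil genes (54.8 CPM, 0.665) and Slc13a3 (767 CPM, 0.983). Male 1 was high among the male-labelled libraries for Adamts15 (277 CPM, 0.871) and Abcc9, a subunit of potassium channels (252 CPM, 0.988).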

How the results depend on the processing

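The count of genes that differed between the sex labels was 0 with edgeR under other normalizations, filters and minimum folds, with all 15 libraries in the fit, with the replicate block (741 at an unadjusted p under 0.05) and in each fit without 1 library (171 to 640), but 4 with DESeq2, and 1 with edgeR without the 2 libraries whose sex-linked genes go against the label. The cause was not tested. Of the 10 highest genes by CPM, 3 were kept with TPM, which divides by length. Of the 100 most variable genes, 25 were kept when genes with a mean of at least 1 CPM were admitted, which adds low genes, and 78 to 96 without 1 library. The median SD of log2 CPM was 0.258 to 0.288 without 1 library and 0.28 with female 1 and male 1 summed. Without male 3, the mean sum of chondrocyte genes was 384 CPM instead of 803, that of skeletal muscle genes 21.3 instead of 38.97 and that of epithelial genes 0.548 instead of 0.893. Of the other values, 87 of the main results stayed within 1.5 times (counts and medians) or 1 SD (list sums) of the value reported. A further 300 list sums, those without male 3 among them, moved by less than 1 SD between libraries. Leaving out 1 library cannot move the mean of a list by 1 SD, so for those sums this was fixed in advance. Depth limits genes near 0 in the female-labelled libraries, where 3 counts are 0.134 to 0.226 CPM.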
